A study of Mus musculus with 4 samples.

Results

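The EGR, NR4A and FOS activity-induced factors are 10 immediate early genes of neurons, grouped here by name: Egr1, Egr2, Egr3, Egr4, Nr4a1, Nr4a2, Nr4a3, Fos, Junb and the effector Arc. They were found among the non-control probes of the arrays through the RefSeq transcript each probe was designed to, which gave 11 probes for the 10 genes, out of 20832 genes with a symbol on the array. Of these, 9 genes passed the filter on dim probes and were tested, among 15759 genes tested in all. The probe of Nr4a3 was not well above background on any array in either channel, so that gene has no tested value.

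The arrays measured total RNA of the cerebral cortex, taken from male mice at 3 months of age. On each of 4 arrays a wild-type sample carrying Cy3 was hybridised with a sample labelled Ndrg2-/- carrying Cy5, and the mice of both genotypes were on a C57BL/6N background. No array had the dyes exchanged, so genotype and dye cannot be told apart. All 4 arrays lay on 1 slide read in 1 scan. The labels number the pairs 1 to 4, and nothing in them says whether each sample came from 1 animal, so the p-values measure only the spread between these samples. The construction of the Ndrg2-/- allele is not given in the sources used here.

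Immediate early genes are switched on within minutes of synaptic activity, because their promoters already carry the factors that calcium and MAP kinase signalling act on, among them CREB at cyclic AMP response elements and SRF with its partners at CArG boxes. The EGR proteins are zinc finger factors, the NR4A proteins are orphan nuclear receptors, and FOS and JUNB pair to form the AP-1 factor. Arc is an effector that acts at synapses on the trafficking of glutamate receptors. In the cortex the RNA of these genes is short-lived and follows recent neuronal activity.

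RefSeq windows of GRCm38.p6 from 250 bases before to 50 after the transcript start were found for 7 of the 10 genes, with 11 windows in all because Egr2 has 5. Windows of Arc, Egr1 and Egr3 were not used here. The 4 windows printed here belong to members with wide swings between arrays, which the values below describe. They are marked for matches to the letters of the elements named above. Each is given 5′ to 3′ on the strand of its gene, with capitals for TGACG, the short form of the cyclic AMP response element (searched on both strands, so that it also reads CGTCA), and for the CArG box.
Egr2 (chr10:67537619-67537918, plus strand): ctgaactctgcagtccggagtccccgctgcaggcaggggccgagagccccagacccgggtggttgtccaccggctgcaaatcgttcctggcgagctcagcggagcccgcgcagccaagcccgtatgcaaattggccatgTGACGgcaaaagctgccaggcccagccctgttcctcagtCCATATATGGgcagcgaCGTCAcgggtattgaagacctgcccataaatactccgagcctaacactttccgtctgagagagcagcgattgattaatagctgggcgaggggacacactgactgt
Nr4a1 (chr15:101266596-101266895, plus strand): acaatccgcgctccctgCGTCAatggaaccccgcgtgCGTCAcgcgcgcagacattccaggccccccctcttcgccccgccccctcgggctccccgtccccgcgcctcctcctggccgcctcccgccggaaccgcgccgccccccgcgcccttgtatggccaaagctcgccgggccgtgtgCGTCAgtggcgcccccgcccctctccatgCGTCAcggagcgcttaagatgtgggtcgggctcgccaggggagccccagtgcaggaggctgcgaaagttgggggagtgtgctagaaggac
Nr4a2 (chr2:57123954-57124253, minus strand): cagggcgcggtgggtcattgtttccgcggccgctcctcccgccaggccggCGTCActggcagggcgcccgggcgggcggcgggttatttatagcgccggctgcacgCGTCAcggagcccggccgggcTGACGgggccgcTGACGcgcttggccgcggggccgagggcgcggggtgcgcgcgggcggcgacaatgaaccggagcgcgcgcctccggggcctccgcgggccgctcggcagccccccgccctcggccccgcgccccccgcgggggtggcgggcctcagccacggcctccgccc
Fos (chr12:85473640-85473939, plus strand): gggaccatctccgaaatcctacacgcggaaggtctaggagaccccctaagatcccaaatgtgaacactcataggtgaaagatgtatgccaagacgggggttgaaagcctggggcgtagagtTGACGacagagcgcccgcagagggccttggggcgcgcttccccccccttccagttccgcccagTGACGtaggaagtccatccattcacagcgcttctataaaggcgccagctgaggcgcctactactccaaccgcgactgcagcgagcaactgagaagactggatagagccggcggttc

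All 7 genes with a window held at least 1 short form, beside 23.0% of all genes with a window, and 9 of the 11 windows did so, beside 20.8% of all windows. The full element TGACGTCA, which contains the short form, was in none of the 11 and in 1.79% of all windows. Nr4a1, Nr4a2 and the untested Nr4a3 held 4 short forms each. Fos, Egr4 and the printed window of Egr2 held 2 each, and Junb held 1. The CArG box was in 4 of the 5 windows of Egr2 and in no window of another member, beside 1.63% of all windows, and lay between positions -72 and -63 in the window shown. Several windows of Egr2 overlap, so the same letters are counted in more than 1 window. By gene, the CArG box was in 1 of 7 members, beside 1.81% of all genes with a window. The EGR site GCGNGGGCG, on both strands, was in the windows of Nr4a1 and Nr4a2 and in 5.55% of all windows, and overlapped none of the capitals. A match describes the letters of the window and is not evidence of binding.

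The check of the targeted gene did not separate the labels in the direction of a loss. Ndrg2 was higher, not lower, in the samples labelled Ndrg2-/-, by 0.32 ± 0.14 (SD, n = 4) on the log2 scale (limma adjusted p = 0.0173). It did not pass without array 2 (adjusted p = 0.0795) or array 3 (0.0651), nor with processed signals (0.0663), in the same limma model. The part of Ndrg2 that was removed is not given in the sources used here, so whether its probe can show the deletion is not known. Every direction below therefore refers to samples as labelled. All 6 markers each of excitatory neurons, inhibitory neurons, astrocytes, microglia and oligodendrocytes, and all 7 of cortical layers, were among the genes tested, and their calls are given at the end. In bulk RNA, fewer cells of a type and less RNA per cell cannot be told apart.

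Of the 9 genes tested, 1 passed limma's moderated test at an adjusted p under 0.05 (adjusted over all kept probes) and was higher in the samples labelled Ndrg2-/-, none was lower, and 8 did not pass. Over all 15759 genes, 15% passed in either direction, 9.12% as higher and 5.84% as lower. Without adjustment, 5 of the 9 had a p under 0.05, beside 34.8% of all genes. No member reached 1.5 fold with the same sign on all 4 arrays, which 0.0952% of all genes did. The log2 ratios differed widely from array to array for most members.

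**Figure D1:**
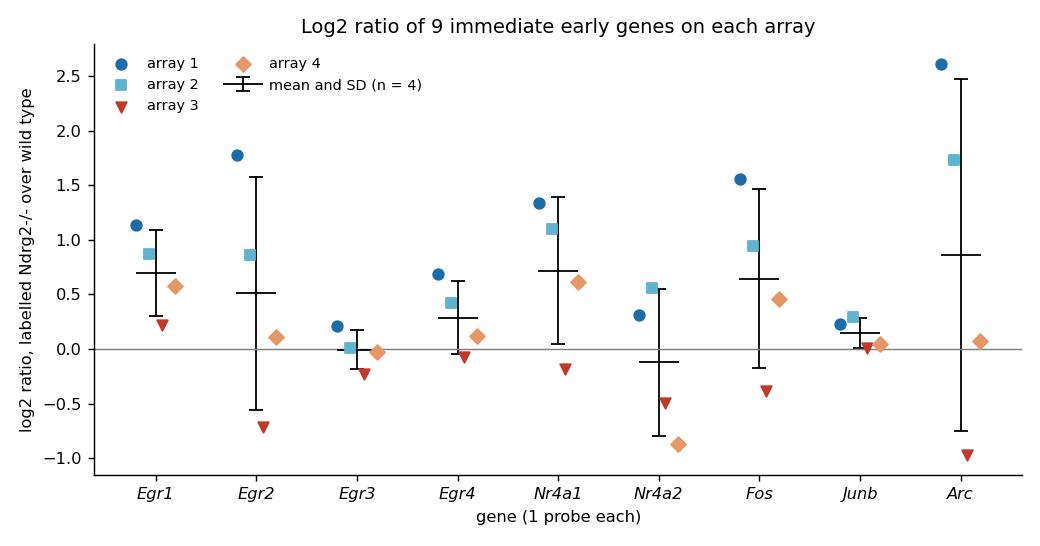
Log2 ratio of the sample labelled Ndrg2-/- over the wild-type sample (vertical axis) for the 9 tested genes (horizontal axis), with 1 symbol per array and a bar for the mean and SD over 4 arrays. All 9 genes lie above 0 on arrays 1 and 2 (8 of 9 on array 2 under median centring without loess), and 2 of 9 do so on array 3.

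Egr1, a zinc finger factor widely used as a marker of neuronal activity, was the gene that passed. Its log2 ratio was 1.14, 0.87, 0.22 and 0.58 on arrays 1 to 4. All 4 values were above 0, and the one on array 3 was the smallest. The mean was 0.70 ± 0.39 (SD, n = 4), or 1.62 fold, with a 95% interval of 0.40 to 1.003 and a limma adjusted p of 0.0188. In an exact two-sided test that flips the sign of each array, 2 of the 16 assignments were as extreme as the one measured, the fewest that 4 arrays can give, so that test cannot pass at 0.05. The call was lost without array 2 (0.64, adjusted p = 0.0855), lay at an adjusted p of 0.04997 without array 1, and was also lost when Feature Extraction's processed signals were used (0.72, adjusted p = 0.0548).

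In single channels the level of Egr1, as log2 intensity after scaling between arrays, was 13.48, 13.74, 13.61 and 13.62 in the wild-type samples 1 to 4. In the samples labelled Ndrg2-/- it was 14.62, 14.61, 13.83 and 14.19. The wild-type samples lay closer together, with an SD of 0.11, than those labelled Ndrg2-/-, with an SD of 0.38. With each channel scaled to its median these SDs were 0.15 and 0.47. All 4 labelled Ndrg2-/- levels were above all 4 wild-type levels, which held for 9.06% of all genes. With each channel scaled to its median instead, the groups overlapped, because the lowest labelled Ndrg2-/- level (13.79) fell below the highest wild-type level (13.83), and the share of all genes without overlap was 6.21%. Among the 9 genes, Egr1 alone had groups that did not overlap under the first scaling.

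Egr2, the family member that responds to strong stimulation and also drives myelination in Schwann cells, had log2 ratios of 1.78, 0.86, -0.72 and 0.11 on arrays 1 to 4. It was higher in the sample labelled Ndrg2-/- on 3 arrays and lower on array 3. The mean of 0.51 ± 1.07 (SD, n = 4) did not pass (limma adjusted p = 0.343), and it was 0.085 without array 1 and 0.92 without array 3. Its levels were 8.69, 9.51, 9.76 and 9.62 in wild type and 10.48, 10.38, 9.04 and 9.72 in the samples labelled Ndrg2-/-. The wild-type sample of array 1 was the lowest of all 8 and its partner on the same array the highest.

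Egr4 had log2 ratios of 0.68, 0.42, -0.07 and 0.12, again with the highest on array 1 and the lowest on array 3. The mean was 0.29 ± 0.33 (SD, n = 4; limma adjusted p = 0.128), and 0.15 without array 1. After removal of each gene's own mean, the profiles of Egr1 and Egr4 over the 4 arrays differed by a root mean square of 0.071, the smallest of the 36 pairs of tested genes. In both genes the wild-type levels had the smaller range (1.199 fold for Egr1 and 1.205 fold for Egr4). The range over the samples labelled Ndrg2-/- was 1.73 fold and 1.45 fold.

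Egr3, an EGR factor that is itself induced downstream of activity in several systems, was measured by a dim probe, with 91.1% of the tested genes brighter. Its log2 ratios were 0.21, 0.01, -0.22 and -0.03, with a mean of -0.01 ± 0.18 (SD, n = 4; limma adjusted p = 0.949). The order of the arrays was that of Egr1, Egr2 and Egr4, at a smaller size. With Feature Extraction's processed signals, which are made without the offset used here, the values were 0.51, 0.39, -0.53 and 0.34, and the mean changed sign to 0.18. Over the fits without 1 array the mean ran from -0.081 to 0.064, and under median centring without loess Egr3 was called lower (-0.28, limma adjusted p = 0.00646). Egr3 lies on the chromosome of Ndrg2, 171 tested genes away in gene order. Of 543 tested genes on that chromosome, 69 were called higher and 63 lower, beside 9.12% and 5.84% of all genes. Of the 2 tested genes on each side of Egr3, Tnfrsf10b was higher (0.53, limma adjusted p = 0.000880) and Ccar2 lower (-0.21, limma adjusted p = 0.0314). Rhobtb2 (0.16) and Bin3 (0.07) did not pass. As the median over its probes, Bin3 was at 0.26 and passed (limma adjusted p = 0.00924). Ccar2 was at 0.11 when arrays were only centred on their median.

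Nr4a1, an orphan nuclear receptor induced by calcium and cyclic AMP signalling, had log2 ratios of 1.34, 1.104, -0.18 and 0.61. Its mean of 0.72 ± 0.67 (SD, n = 4) was close in size to that of Egr1, with a wider spread, and did not pass (limma adjusted p = 0.0686). Without array 3, the one array below 0, the mean was 1.02 and it passed (limma adjusted p = 0.0123), while without array 1 it was 0.51 (limma adjusted p = 0.192). Wild-type levels were 13.003, 13.35, 13.91 and 13.46, and those of the samples labelled Ndrg2-/- were 14.34, 14.45, 13.72 and 14.07. In 3 of 4 samples labelled Ndrg2-/- the level was above the highest wild-type level, and the exception was array 3, which held both the highest wild-type and the lowest labelled Ndrg2-/- sample.

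Nr4a2, the receptor also needed by dopamine neurons, departed from this order. Its brighter probe gave log2 ratios of 0.32, 0.56, -0.50 and -0.87, with a mean of -0.12 ± 0.67 (SD, n = 4; limma adjusted p = 0.740) that ran from -0.35 to 0.13 over the fits without 1 array. The other probe gave 0.71, 0.92, -0.17 and -0.55, with a mean of 0.23 ± 0.70 (SD, n = 4; limma adjusted p = 0.530). The probes disagree in the sign of the mean but run through the arrays in the same order, with array 2 highest and array 4 lowest. On array 4 the wild-type level of Nr4a2 (11.67) was the highest of the 8 samples, though with each channel scaled to its median the labelled Ndrg2-/- sample of array 1 was above it (11.59 against 11.53). For Nr4a1 the sample labelled Ndrg2-/- was the higher one on array 4. For Nr4a3, the third receptor of the family, no more than 2 of its 10 spots passed the scanner's background test on any array, and no fold is given.

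Fos had log2 ratios of 1.55, 0.95, -0.39 and 0.46. The probe is printed in 10 spots on each array, and over those kept the SD was 0.058, 0.025, 0.043 and 0.036 on arrays 1 to 4. The spots of 1 array share their RNA, labelling and hybridisation, so this SD covers spot noise alone and not the error of amplification, labelling or sampling. The mean of 0.64 ± 0.82 (SD, n = 4) did not pass (limma adjusted p = 0.142), and it was 0.34 without array 1 (limma adjusted p = 0.370) and 0.99 without array 3 (limma adjusted p = 0.0368). Wild-type levels were 9.10, 9.69, 9.74 and 9.51, and those of the samples labelled Ndrg2-/- were 10.65, 10.64, 9.35 and 9.97.

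**Figure D2:**
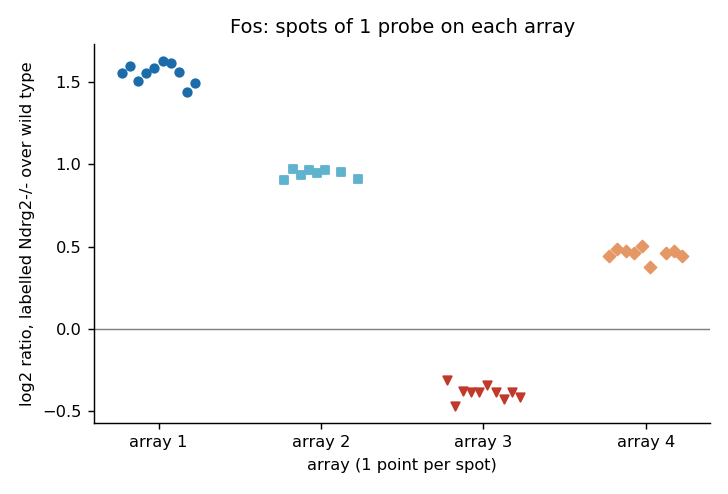
Log2 ratio of the sample labelled Ndrg2-/- over wild type (vertical axis) of every spot of the Fos probe kept on arrays 1 to 4 (horizontal axis). The spots run from 1.44 to 1.63 on array 1 and from -0.46 to -0.31 on array 3, and show spot noise alone, since those of 1 array share their samples.

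Junb, a partner of FOS in AP-1, was measured by a dim probe like that of Egr3, with 88.5% of the tested genes brighter. Its log2 ratios of 0.23, 0.29, 0.01 and 0.05 were all above 0, which held for 24.1% of all genes and, among the members, for Egr1 as well. The mean was 0.15 ± 0.14 (SD, n = 4; limma adjusted p = 0.123). With Feature Extraction's processed signals the values were 0.86, 0.76, -0.18 and 0.18, so that array 3 was below 0, with a mean of 0.41 ± 0.49 (SD, n = 4; limma adjusted p = 0.208). Under median centring without loess the mean changed sign to -0.067.

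Arc showed the widest range of the members. Its log2 ratios were 2.62, 1.73, -0.97 and 0.07, that is 6.13 fold higher in the sample labelled Ndrg2-/- on array 1 and at 0.510 of wild type on array 3. The mean of 0.86 ± 1.62 (SD, n = 4) did not pass (limma adjusted p = 0.291). It rested on single arrays: it was 0.28 without array 1, 0.57 without array 2 and 1.47 without array 3, and the first of these is below the means of Egr1 (0.55), Nr4a1 (0.51) and Fos (0.34) over the same 3 arrays. Wild-type levels were 12.66, 13.53, 14.64 and 14.27, a 3.94-fold range among samples of 1 genotype. Levels of the samples labelled Ndrg2-/- were 15.27, 15.27, 13.66 and 14.34, a 3.05-fold range. The groups overlapped: the wild-type samples of arrays 3 and 4 were both above the labelled Ndrg2-/- sample of array 3, and the wild-type sample of array 1 was the lowest of the 8.

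**Figure D3:**
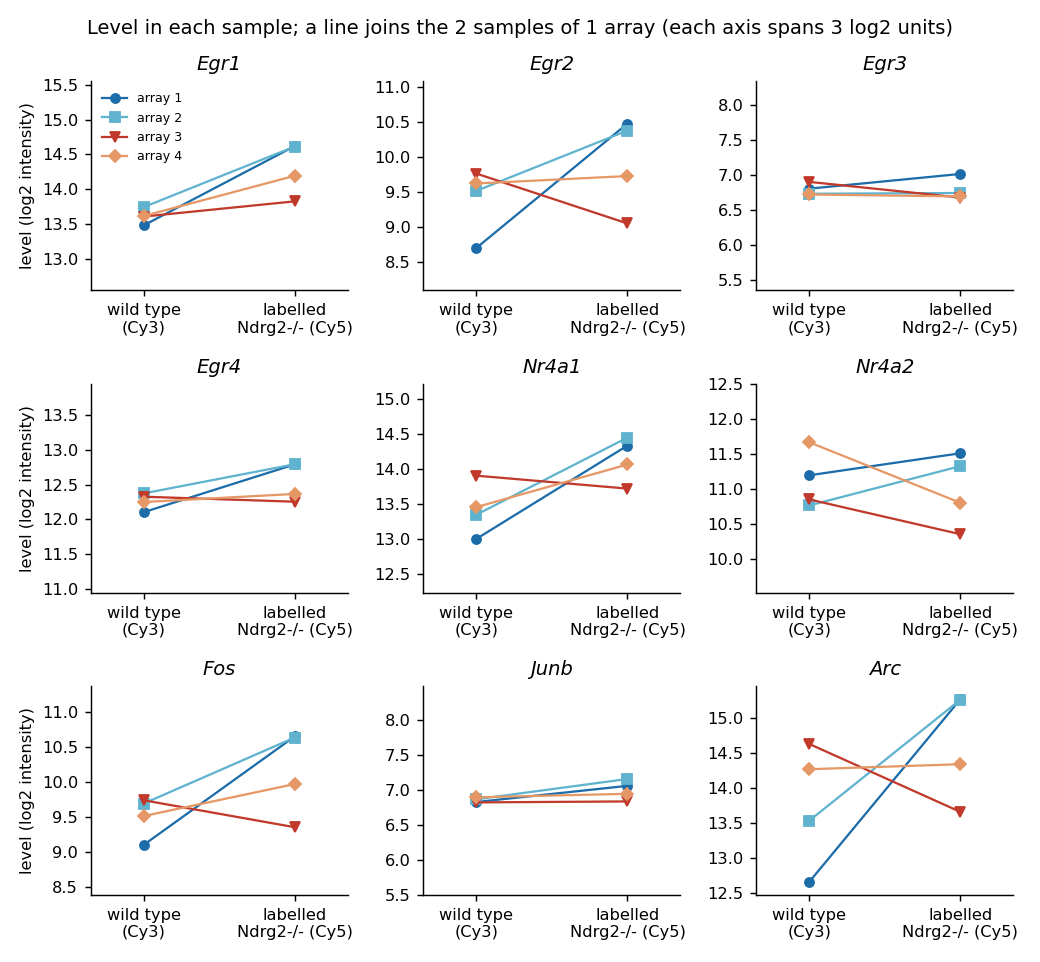
Level of each tested gene (vertical axis, log2 intensity after loess within and quantile scaling between arrays) in the wild-type and labelled Ndrg2-/- sample of each array, joined by a line per array; each panel spans 3 log2 units. For Arc, Egr2, Fos and Nr4a1 the line of array 1 climbs from the lowest wild-type level while that of array 3 falls, and for Egr1 all 4 lines climb.

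The median SD of the log2 ratio over the 4 arrays was 0.67 for the 9 members and 0.089 for all genes tested. Among the 9, 6 were in the top 1% of all genes by SD and 7 in the top 5%, and Egr3 and Junb, the dim ones, were not. The offset compresses the ratios of these dim probes. With Feature Extraction's processed signals their SDs were 0.48 (Egr3) and 0.49 (Junb). For Arc 99.99% of the tested genes had a smaller SD. Within the wild-type samples the SD of the level was 0.87 for Arc, 0.48 for Egr2, 0.41 for Nr4a2, 0.37 for Nr4a1 and 0.29 for Fos, with a median of 0.087 over all genes. For the other 4 it was 0.12 (Egr4) and 0.11 (Egr1), above that median, and 0.083 (Egr3) and 0.035 (Junb), below it. The first 2 values became 0.16 and 0.15 with each channel scaled to its median, a scaling not used for the other SDs given here. In the samples labelled Ndrg2-/- it was 0.78, 0.66, 0.52, 0.33 and 0.62 for the first 5 genes, and 0.28, 0.38, 0.16 and 0.14 for the other 4.

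**Figure D4:**
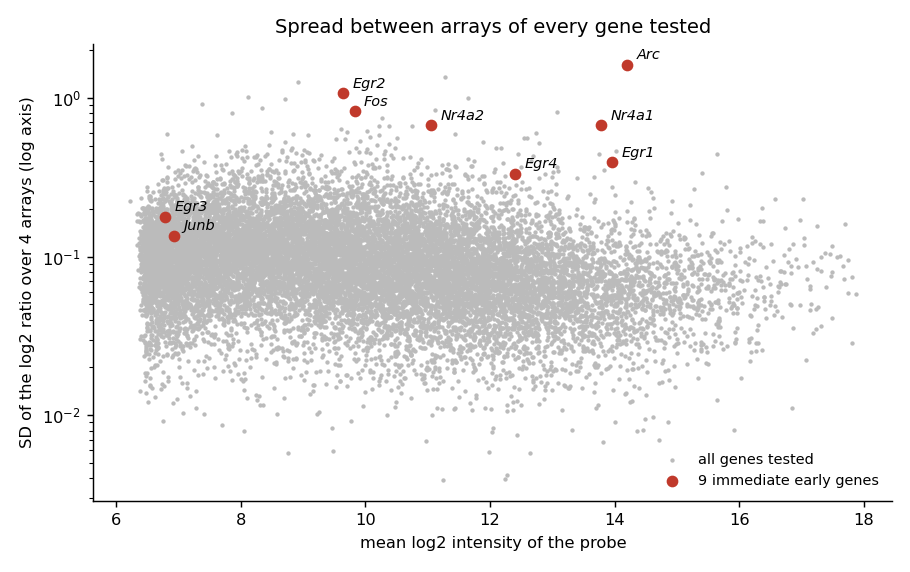
SD of the log2 ratio over 4 arrays (vertical axis, log scale) against the mean log2 intensity of the probe (horizontal axis) for all 15759 genes tested (grey) and the 9 members (red). Arc, Egr2 and Fos sit at the upper edge of the cloud, and Egr3 and Junb lie within it at low intensity.

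The members moved through the arrays in nearly 1 order. In 7 of 9 genes the log2 ratio was highest on array 1, then array 2, array 4 and array 3, an order that 5.58% of all genes had. Nr4a2 and Junb, with array 2 highest, were the exceptions. For 8 of 9 genes array 3 was the lowest, beside 21.98% of all genes, and Nr4a2 was the exception. The median over the 9 members was 1.14, 0.86, -0.22 and 0.11 on arrays 1 to 4, while that of all genes lay between 0.011 and 0.017. These counts describe genes that share their RNA samples and were chosen as 1 family of responses, so they are not independent of each other.

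In the mean over the members, both channels moved with that order. Averaged over the 9 members, the level in the wild-type samples stood at -0.32, -0.02, 0.20 and 0.14 relative to its own mean over arrays 1 to 4. In the samples labelled Ndrg2-/- it stood at 0.36, 0.32, -0.53 and -0.15. Genes with wide swings weigh most in these means, such as Arc, with wild-type levels of 12.66 on array 1 and 14.64 on array 3. Not every member moved so in wild type. On the same arrays Nr4a2 ran the other way (11.20 and 10.85), and Junb was nearly level (6.83 and 6.82). The labelled Ndrg2-/- sample of array 3 was the lowest of its group for all 9 genes, or for 8 of 9, without Egr4, when each channel was scaled to its median. Within an array the channels share a spot, so the levels of the paired samples are not independent measurements.

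By family, the EGR genes had array medians of 0.91, 0.64, -0.15 and 0.11. The tested NR4A genes had 0.83, 0.83, -0.34 and -0.13, and the FOS/JUN genes 0.89, 0.62, -0.19 and 0.25. The family medians shared the sign on arrays 1, 2 and 3, though on array 3 Egr1 (0.22) and Junb (0.01) were above 0. The NR4A and FOS/JUN medians are midpoints of 2 genes each. On array 4 the NR4A median alone was below 0, from Nr4a1 at 0.61 and Nr4a2 at -0.87. Under median centring without loess the NR4A medians on arrays 3 and 4 turned to 0.064 and 0.37. The root mean square difference of the centred profiles had a median of 0.52 over the 8 pairs within a family (0.071 to 0.77) and of 0.48 over the 28 pairs between families (0.11 to 1.29). Nr4a1 differed from Fos by 0.17 and from its relative Nr4a2 by 0.45, and the pair of Junb and Arc was farthest apart. The profiles were centred but not scaled, so this difference also grows with the size of a gene's swing. Arc and Egr1 differed by 1.06. In units of its own SD, Arc stood at 1.09, 0.54, -1.14 and -0.49 on arrays 1 to 4. Egr1 stood at 1.11, 0.43, -1.22 and -0.31 in its own units. The medians within and between families therefore do not say whether relatives share a shape.

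The genes outside the group whose levels in the 8 samples were most like the members' mean were Arl4d, Dusp1, Sik1, Ccn4, Gadd45a and Tiparp. Their root mean square differences from that mean ran from 0.053 for Arl4d to 0.11 for Tiparp, with a median of 0.31 over all genes tested. The 6 were picked for this likeness over the same 8 samples. That each was highest on array 1 and lowest on array 3 follows from that choice and is no separate result. None of the 6 passed the test between genotypes. Arl4d, a small GTPase of the ARF family, had log2 ratios of 0.85, 0.56, -0.34 and -0.01. Dusp1, a phosphatase that switches off MAP kinases, had 1.15, 0.82, -0.30 and 0.51. Sik1, a kinase that restrains CREB coactivators, had 0.84, 0.56, -0.22 and 0.13.

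Of 76 further genes listed around the same pathway, 73 were tested, of which 11 rose, 2 fell and 60 did not pass; of all genes, 9.12% were called higher and 5.84% lower, to be read beside this and each count below. In 24 of the 73 the arrays ran in the order 1, 2, 4, 3 (5.58% of all genes), and 39 were lowest on array 3. The order held for 7 of 20 other immediate early factors, 11 of 22 effectors and 4 of 9 MAPK phosphatases. It held for 0 of 2 EGR corepressors and 2 of 20 upstream regulators. The lists also hold Arl4d, Dusp1 and Sik1, which are among the genes most like the members. Among other immediate early transcription factors 2 of 20 rose and none fell, with a median log2 ratio of 0.11 beside 0.015 for all genes. The 2 were Klf4 (0.42, limma adjusted p = 0.0216) and Ier5 (0.39, limma adjusted p = 0.0420). As the median over its probes, Ier5 was at 0.31 and did not pass (limma adjusted p = 0.174). Klf4 had values of 0.67, 0.40, 0.11 and 0.51.

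Among activity-regulated effectors 4 of 22 rose and 1 fell, with a median of 0.12. Plk2, a kinase that acts in homeostatic scaling of synapses, was at 0.24 (limma adjusted p = 0.0152), Vgf, a secreted neuropeptide precursor, at 0.23 (0.0302) and Homer1, a postsynaptic scaffold, at 0.20 (0.0204). Fbxo33, at 0.15 (0.0450), is named after its value was seen. Gadd45g, a regulator of growth arrest, fell by 0.30 (limma adjusted p = 0.0336), and was at 0.08 when arrays were only centred on their median. Homer1 and Plk2 were steady over the arrays, with SDs of 0.046 and 0.063. As the median over its probes, Homer1 was at 0.22 and did not pass (limma adjusted p = 0.0774).

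Of the MAPK phosphatases, which end the kinase signal that induces these genes, 1 of 9 rose and none fell, with a median of 0.10. It was Dusp4, with 0.86, 0.69, 0.20 and 0.25 on arrays 1 to 4 (mean 0.50, limma adjusted p = 0.0291). The EGR corepressors Nab1 (0.07, adjusted p = 0.535) and Nab2 (0.25, adjusted p = 0.357), which bind EGR proteins and hold them back, did not pass limma's test. Nab2 ran with the members on arrays 1 to 3, at 0.78, 0.63, -0.18 and -0.23, and its mean ran from 0.072 to 0.41 over the fits without 1 array and was 0.099 as the median over its probes.

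Of the 20 regulators that act upstream of the members, 4 rose, 1 fell and 15 did not pass, with a median of 0.07. Elk1, the SRF partner that MAP kinases phosphorylate, was at 0.62, 0.60, 0.58 and 0.49 on arrays 1 to 4 (mean 0.57, limma adjusted p = 0.000753). Mef2a was at 0.45 (adjusted p = 0.00156), Srf at 0.36 (0.0114) and the CREB-binding coactivator Crebbp at 0.23 (0.0185) in the same limma fit. Rps6ka5, a kinase of CREB and histones, fell by 0.20 (limma adjusted p = 0.0395) and is named after its value was seen. As the median over a gene's probes, the changes were smaller and still passed limma's test: 0.22 for Elk1, 0.15 for Mef2a and 0.21 for Srf, and Elk1 was at 0.35 with processed signals. Elk1 and Mef2a did not follow the order of the members and had SDs of 0.058 and 0.067.

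**Figure D5:**
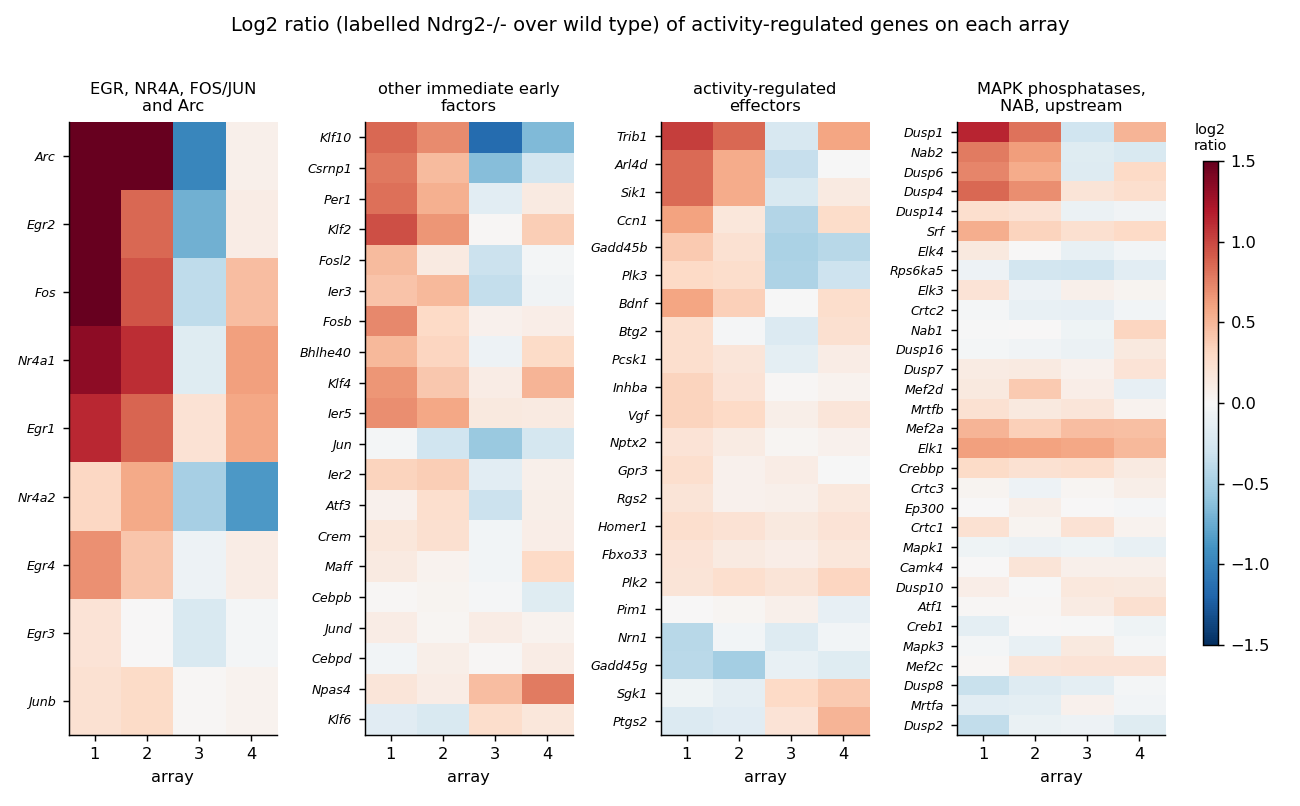
Log2 ratio (colour, limited to -1.5 and 1.5) on arrays 1 to 4 (columns) of the 9 members and 73 other genes of the pathway (rows, sorted by the difference of arrays 1 and 3). Most genes near the top are red on arrays 1 and 2 and pale or blue on array 3, while Elk1 and Mef2a keep 1 colour across the arrays.

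Markers of other cells were set beside these results. All 6 markers of the meninges (Dcn, Lum, Col1a1, Col1a2, Igf2 and Slc6a13) rose, with array medians of 0.64, 0.44, 0.26 and 0.64, and their mean log2 level ran from 9.12 to 10.03 in wild type and from 9.74 to 10.32 in the samples labelled Ndrg2-/-. The 4 markers of blood were at medians of -0.39, -0.12, -0.10 and 0.33, and none passed. Of the neuronal markers, Neurod6 (0.29) and Nrgn (0.21) rose among 6 for excitatory neurons and Rorb (0.25) among 7 for cortical layers, and none of 6 for inhibitory neurons passed. Of 6 markers each, Aldoc (0.24) rose for astrocytes, Cx3cr1 (0.19) and Tmem119 (0.27) for microglia, Mbp (0.77) for oligodendrocytes and Pecam1 (0.18) for endothelium. Penk (-0.26) fell among 7 striatal markers, and Wfs1 (-0.27) and Lct (-0.25) among 5 hippocampal ones. Of the brightest 5% of genes, which include Arc, 19.9% were called higher, and Egr1 lies just outside them, with 5.91% of genes brighter. The part of cell makeup and brightness in the members' values was not tested.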

How the data were processed

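The members and all lists were chosen with earlier results of these data known. Per the labels' protocols, RNA was extracted with RNeasy. The labelling protocol in the labels (200 ng of RNA, linear amplification, Cy3 or Cy5) names shoots as its source, which is not the tissue of these samples, so its details may not apply. The file headers name Agilent Feature Extraction 11.0.1.1, and the submitters' processing notes name 10.7.3.1. Per the file headers, raw intensity means the median pixel signal of a spot (a mean signal was planned and not used here). The deposited log10 ratio of each spot and the authors' deposited table of log2 values come from processed signals, red over green. From the raw intensity, log2 ratios were computed with R 4.3.3 and limma 3.58.1 (normexp with an offset of 50, loess within arrays). Of 39429 probes, 27664 were kept, those that Feature Extraction marked well above background in 1 channel or both on every array. A gene's brightest probe stands for it. An intercept-only limma model gave p-values adjusted by Benjamini-Hochberg over kept probes. The ratio within an array already pairs the samples. Single-channel levels were scaled with Aquantile. Simulated data held 15759 genes, of which a small part was changed by known sizes. The fit recovered 22 of 57 genes changed by 0.25, 44 of 67 changed by 0.5 and 74 of 76 changed by 1 (log2). The changed genes were drawn from all genes tested, whose median SD was 0.089, beside 0.67 for the members. The noise was drawn for each probe on its own, without a shared movement over the arrays. These rates therefore do not carry over to the members. False calls among the unchanged genes are not given here.

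Genes were named by rule: all members, the called genes of each list by size up to 4 (the 2 largest where none was called), the 6 most alike genes, and the 2 tested neighbours on each side of Egr3. The number of arrays (4) limits the precision, and no correlation over arrays is given. Alternatives are in the closing section.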

Additional observations from a re-analysis of the deposited data

How the results depend on the processing

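Under every normalization, filter and probe summary tried, 8 of 9 members (9 of 10 with no filter) were lowest on array 3. The full order 1, 2, 4, 3 held for 7 of 9. It held for 8 of 9 with processed signals or the deposited table, which share their values, and for 8 of 10 with no filter. The settings without a filter and with the median over probes reuse the ratios of the main fit. The count of members that passed was 1 and became 0 with processed signals and with the deposited table, 2 with an intensity trend and 7 with median centring without loess (6 higher, and Egr3 lower), and ran from 0 to 3 over the fits without 1 array. Median centring moved the median of all genes to 0.28, with 82.3% called. With the channels fitted separately (no replicate block, chosen after seeing the data) 2 members passed. Members at 1.5 fold on all arrays were 0, 1 with median centring, and 0 to 1 without 1 array. Other activity-regulated genes called higher numbered 11, and 5 with processed signals or the deposited table, 7 with an offset of 10, 60 with median centring, 17 with a trend, and 2 to 13 without 1 array. Those called lower numbered 2, and 1 with processed signals, the deposited table or an offset of 10, 4 with a trend or separate channels, and 0 to 1 without 1 array. Signs turned for Egr3 (0.18 with processed signals or the deposited table; -0.081 to 0.064 without 1 array), Nr4a2 (0.24 with median centring, 0.053 as the median of its probes; -0.35 to 0.13 without 1 array), Nab1 (-0.019 to 0.11 without 1 array), and under median centring for Junb (-0.067), Gadd45g (0.083) and Ccar2 (0.11). Among the other genes named by rule, 8, 11, 4 and 3 lost their call without array 1, 2, 3 and 4, and 8 with processed signals. Ier5 and Homer1 lost theirs as the median over a gene's probes. Beyond what an offset or fewer arrays do by construction, the cause was not tested. Ratios of dim probes (Egr3, Junb) are compressed by the offset.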

Other observations

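Some activity-regulated genes ran against the members over the arrays; they were picked after their values were seen. Npas4, a neuronal factor induced by calcium entry, had log2 ratios of 0.19, 0.11, 0.46 and 0.78 on arrays 1 to 4, so that arrays 3 and 4 were the higher ones (mean 0.38, limma adjusted p = 0.0508). Ptgs2, the inducible cyclooxygenase, had -0.20, -0.17, 0.20 and 0.51, and Sgk1, a kinase induced by glucocorticoids, had -0.06, -0.14, 0.30 and 0.40. Klf6 had -0.17, -0.23, 0.26 and 0.17. Klf10, a factor induced by TGF-beta, ran with the members at 0.86, 0.71, -1.15 and -0.66, with an SD of 0.997 that was above that of all members but Egr2 and Arc. Jun, in contrast to Fos, was below 0 on all 4 arrays (-0.02, -0.30, -0.55 and -0.27; limma adjusted p = 0.0515).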
